A study of Mus musculus with 61 samples.

Results

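Mitochondrial ribosomal protein genes were followed in mouse CD4 T cells activated in culture with or without IL-27, a cytokine related to IL-12. They were taken as every gene whose platform symbol starts with Mrpl or Mrps followed by a digit and that has a probe set matched to 1 gene, which gave 74 of the 12291 genes named on the arrays. Of the 74, 47 have Mrpl symbols (named for the large subunit) and 27 Mrps symbols (named for the small subunit). For each the probe set with the highest mean on HT_MG-430A was used. The rule uses no expression change, but the family was chosen with earlier results of these data known. Probe sets that also match another gene were left out, among them the only ones of Mrpl30 and Mrpl53.

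By its title, the series looks for regulators of IL-10 in the program that IL-27 sets up in T helper cells, including type 1 regulatory (Tr1) cells. It holds 61 Affymetrix arrays. The cells started as naive CD4 T cells of C57BL/6 mice, and no age is stated in the labels. Arrays whose titles start with IL27 form the IL27 arm and those with ctrl the control arm. The labels describe stimulation with antibodies to CD3 and, as written, to CD8, at 1 µg/ml each, with IL-27 at 25 ng/ml. That text stands on every array, controls included, so the arm and time came from the titles, and hours are assumed as the unit of time. On HT_MG-430A each arm has 26 arrays at 18 times between 0.5 and 72 h, of which 8 times have 2 arrays per arm. A second type, Mouse430A_2, holds IL27 and ctrl arrays at 4, 16 and 48 h, a ctrl array at 0 h, and arrays named GFPP and GFPN at 48 h, names the labels do not explain.

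Mitochondria carry their own ribosome, which translates the few proteins encoded by mitochondrial DNA, all of them subunits of the respiratory chain and ATP synthase. Its ribosomal RNAs come from mitochondrial DNA, whereas its proteins are encoded in the nucleus, made in the cytosol and imported. Naive T cells are small, quiescent cells, and activation is known to bring cell growth and an increase in mitochondrial mass and respiratory capacity. Many proteins of the mitochondrial ribosome descend from the bacterial ribosome, and others are found only in mitochondrial ribosomes. By textbook assignment the 74 split into 28 large-subunit proteins with a bacterial counterpart, 20 without one, 15 small-subunit proteins with a counterpart and 9 without, leaving Mrpl55 and Mrps36 unclassed. Some symbols mislead: Mrps30 and Mrps18a are proteins of the large subunit and are counted there, and Mrps36 is now regarded as a subunit of the alpha-ketoglutarate dehydrogenase complex.

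All values below are intensities on a linear scale as deposited, or differences of log2(intensity + 32), which understate the change of dim genes. Array medians were 28.0 to 36.6 for HT_MG-430A and 70.7 to 78.9 for Mouse430A_2, and all 74 genes passed the filter on low values. Mean intensities of the 74 over the 52 HT_MG-430A arrays ranged from 269 to 1852 with a median of 692. The brightest were Mrpl52 (1852), Mrpl42 (1829) and Mrps14 (1711), and the dimmest Mrpl37 (286), Mrps11 (272) and Mrpl38 (269). Intensities of different probe sets do not rank the transcripts. The summed level of the 6 measured of 8 listed CD4 T cell markers was between 7559 and 17829 on IL27 arrays and between 6464 and 17438 on ctrl arrays. Sums of 2 CD8 markers reached at most 151 on IL27 arrays and 326 on ctrl arrays, with Cd8a below the array median on every array. Those of 5 B cell markers reached at most 198 on IL27 arrays and 234 on ctrl arrays, and those of 3 NK cell markers 81.6 on IL27 arrays and 48.3 on ctrl arrays. Nothing in the labels says whether arrays came from different cultures or mice, so a p-value here reflects the scatter of arrays, which may be technical, and less RNA per cell cannot be told apart from fewer cells of a kind.

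The ctrl array of 12 h stood apart. Its highest correlation with any other array was 0.871 over 7164 genes, against at least 0.977 for each of the other 51. On it 15 of the 74 genes lay more than 1 log2 unit below, and 4 more than 1 above, the mean of their 8 and 14 h ctrl values. On the IL27 array of 12 h neither happened for any of the 74. The calls of the family and of the lists were therefore also counted without that ctrl array, and those that moved by more than 1.5 times are given both ways below or with the dependence on the processing.

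Transcripts of the mitochondrial ribosome rose together between the first hours and 8 to 20 h, in both arms. The windows compared are 0.5 to 4 h (5 arrays per arm), 8 to 20 h (9), 25 to 36 h (4) and 42 to 72 h (8). The median over the 74 genes was 278 to 528 on the IL27 arrays of 0.5 to 4 h and 697 to 903 on those of 8 to 20 h. On ctrl arrays it was 261 to 388 at 0.5 to 4 h and 621 to 954 at 8 to 20 h. In limma with Benjamini-Hochberg adjustment over all 7164 genes tested, 71 of 74 were called higher at 8 to 20 h in the IL27 arm and 71 in the ctrl arm, the same 71 genes, and 0 were called lower in either (unadjusted p under 0.05: also 0). In each arm 72 were called higher without the 12 h ctrl array (40.3% of all genes in the IL27 arm, 39.3% in the ctrl arm). With all arrays, 38.7% of all genes tested were called higher and 30.1% lower in the IL27 arm. In the ctrl arm the shares were 37.4% higher and 31.8% lower. The median log2 difference of the 74 was 1.30 in the IL27 arm (all genes 0.08) and 1.35 in the ctrl arm (all genes 0.05), and 53 of the 74 rose by more than 1 in each arm.

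**Figure D1:**
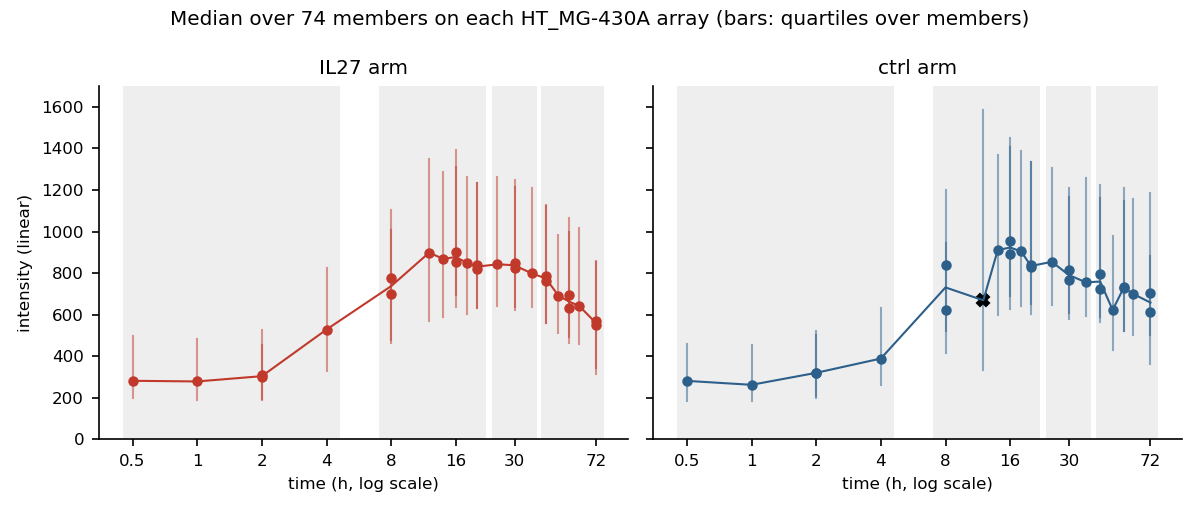
Median intensity over the 74 mitochondrial ribosomal protein genes on each HT_MG-430A array (points; linear scale) against time (h, log scale) in the IL27 arm (left) and the ctrl arm (right), with bars from the lower to the upper quartile over genes, a line through the mean per time and grey bands for the windows. The medians lie at 278 to 528 on IL27 arrays of 0.5 to 4 h and 697 to 903 at 8 to 20 h, and are lower again at 72 h; the cross marks the ctrl array of 12 h.

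The largest rise in both arms was that of Mrpl42 (gene ID 67270, chromosome 10), a large-subunit protein without a bacterial counterpart. Its intensity on the IL27 arrays was 650.2 at 0.5 h, 452 at 1 h, 255 and 299 at 2 h and 928 at 4 h, then 1685 to 2845 (median 2362) at 8 to 20 h. On ctrl arrays it was 688, 422, 289, 325 and 817 over the same early times and 1646 to 3175 (median 2804) at 8 to 20 h. The windows do not overlap in either arm, and the lowest values of both arms fall at 2 h, below those of 0.5 h. The difference was 2.27 ± 0.21 (SE) log2 units in the IL27 arm (limma adjusted p = 8.40e-13) and 2.39 ± 0.21 in the ctrl arm (adjusted p = 1.75e-13).

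Mrps25 (gene ID 64658, chromosome 6), a small-subunit protein without a bacterial counterpart, was among the dimmer genes at first. Its 5 early IL27 arrays read 71.2, 64.6, 55.5, 41.1 and 145, and the 9 of 8 to 20 h read 261 to 487 (median 402). The ctrl arrays read 88.1, 51.2, 64.8, 83.7 and 110.0 early and 260.5 to 484 (median 416) at 8 to 20 h. Again no array of 8 to 20 h was as low as any early one. It rose by 2.04 ± 0.15 in the IL27 arm (limma adjusted p = 2.88e-15) and by 1.93 ± 0.15 in the ctrl arm (adjusted p = 1.08e-14).

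Mrpl27, Mrps22 and Mrpl47 were among the 6 largest rises of both arms as well. Mrpl27, a large-subunit protein near the catalytic centre of the ribosome, rose by 2.01 ± 0.17 in the IL27 arm and 1.80 ± 0.17 in the ctrl arm. Mrps22, a small-subunit protein specific to mitochondria, rose by 1.84 ± 0.21 and, in the ctrl arm, by 1.83 ± 0.21. Mrpl47 rose by 1.82 ± 0.24 in the IL27 arm and 2.05 ± 0.24 in the ctrl arm. The 6 also held Mrpl19 in the IL27 arm (1.89 ± 0.26, and 1.64 in the ctrl arm) and Mrpl1 in the ctrl arm (1.77 ± 0.16, and 1.82 in the IL27 arm).

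The rise was shared by the subunits and by old and newer proteins. Split by symbol, 44 of 47 Mrpl genes and 27 of 27 Mrps genes were called higher in the IL27 arm, with medians of 1.32 and 1.22. In the ctrl arm the counts were equal and the medians 1.34 and 1.36. The classes below place Mrps30 and Mrps18a in the large subunit. Among large-subunit proteins with a bacterial counterpart 25 of 28 were called in each arm (median 1.35 in the IL27 arm, 1.38 in the ctrl arm), and among those without one 20 of 20 (median 1.22 in the IL27 arm, 1.32 in the ctrl arm). Small-subunit proteins with a counterpart were called in 15 of 15 cases (1.03 in the IL27 arm, 1.22 in the ctrl arm) and those without in 9 of 9 (1.44 in the IL27 arm, 1.52 in the ctrl arm). No difference between these classes was tested.

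Members with special roles rose as well. Mrpl12, a protein of the stalk that is also reported to bind the mitochondrial RNA polymerase, rose by 1.70 in the IL27 arm and 1.54 in the ctrl arm. The 3 paralogs related to a single bacterial protein of the small subunit, of which only Mrps18c is classed above as its counterpart, were all called: Mrps18a by 1.78 in the IL27 arm and 1.496 in the ctrl arm, Mrps18b by 1.65 and, in the ctrl arm, 1.44, and Mrps18c by 0.83 in the IL27 arm and 1.22 in the ctrl arm. Mrps36 rose by 1.39 in the IL27 arm and 1.51 in the ctrl arm. The smallest called rises were those of Mrpl43 (0.38 in the IL27 arm, 0.37 in the ctrl arm) and Mrps30 (0.46 in the IL27 arm, 0.42 in the ctrl arm).

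Only 3 of the 74 were not called in either arm, all large-subunit proteins with bacterial counterparts. Mrpl9 read 817, 844, 484, 529 and 583 on early IL27 arrays and 535 to 701 at 8 to 20 h, a difference of -0.06, and in the ctrl arm the difference was -0.11. Its early values were highest at 0.5 and 1 h. A dimmer probe set of Mrpl9 differed by 0.28 in the IL27 arm and 0.13 in the ctrl arm, so the sign rests on the probe set. Mrpl4 differed by 0.09 in the IL27 arm and 0.05 in the ctrl arm, with intensities of 335 to 514 early and 293 to 590.0 at 8 to 20 h on IL27 arrays, and it was higher at 42 to 72 h (735 to 907 on IL27 arrays, 639 to 789 on ctrl arrays). Mrpl24 differed by 0.21 in the IL27 arm (limma adjusted p = 0.071) and 0.16 in the ctrl arm (adjusted p = 0.16).

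**Figure D2:**
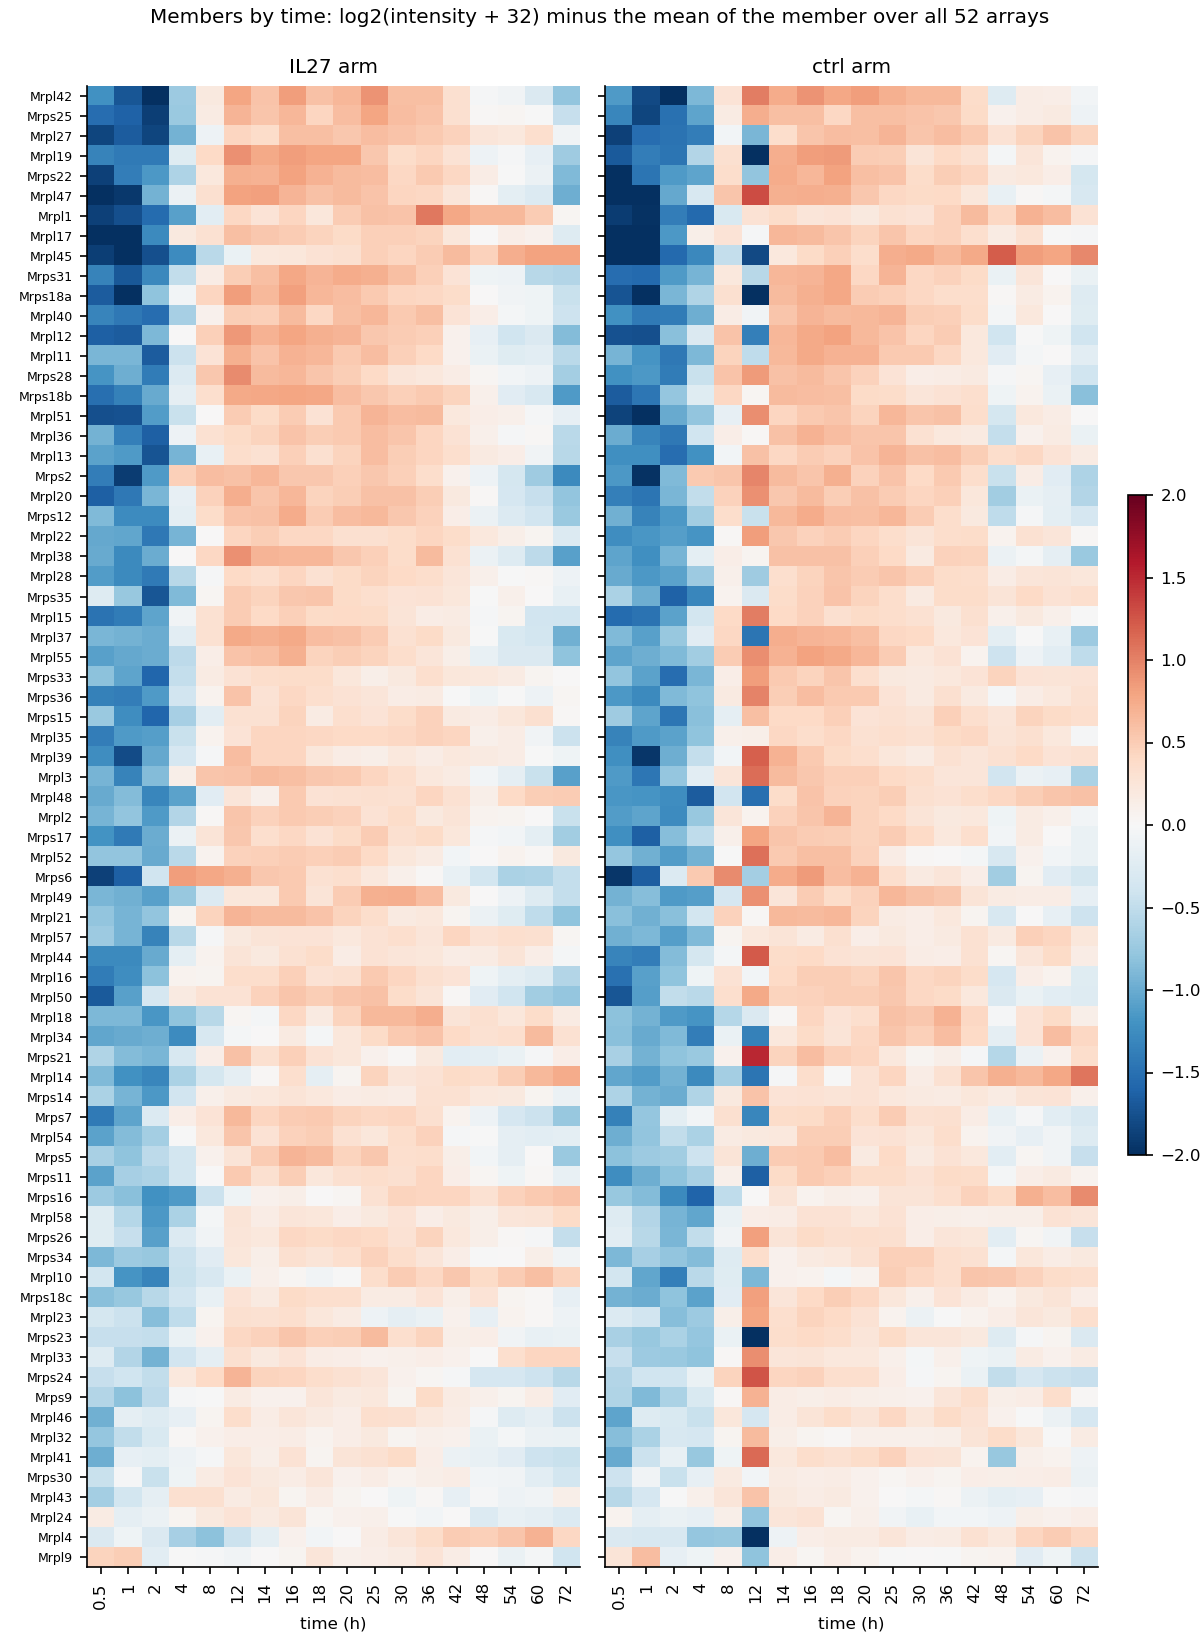
Each mitochondrial ribosomal protein gene (one line per gene, sorted by its rise) against time in h, IL27 arm left and ctrl arm right, coloured by log2(intensity + 32) minus the gene's mean over all 52 HT_MG-430A arrays, averaged over arrays of a time; the scale ends at -2 and 2. Values below the mean fill the columns of 0.5 to 4 h in nearly all genes, values above it those of 12 to 36 h, and the ctrl column of 12 h differs from its neighbours.

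Counted array by array, all 9 IL27 arrays of 8 to 20 h were above all 5 of 0.5 to 4 h for 63 of 74 genes, a pattern that 20.6% of all genes tested showed. For ctrl arrays it was 50 of 74 (14% of all genes), and 65 of 74 without the 12 h array (18.9% of all genes). The time of the highest level fell between 8 and 20 h for 41 genes in the IL27 arm and 55 in the ctrl arm, and between 25 and 36 h for 21 genes in the IL27 arm and 10 in the ctrl arm (15 without the 12 h array). It fell at 42 to 72 h for 10 genes in the IL27 arm and 8 in the ctrl arm. Mrps16 and Mrpl14 peaked at 72 h in both arms, the last time measured. The lowest time lay between 0.5 and 4 h for 70 genes in the IL27 arm and 64 in the ctrl arm, or 73 in the ctrl arm without the 12 h array.

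The markers of other cells moved over the same windows. Sums of the 7 myeloid and dendritic markers were 140.2 to 366 on IL27 arrays of 0.5 to 4 h and 98.8 to 181 on those of 8 to 20 h; on ctrl arrays they were 125 to 271 early and 101 to 145 at 8 to 20 h. Itgam, Cd14, Itgax, Flt3 and Fcgr3 of that list were below the array median on every array. Lyz2, the only one of the 7 tested, averaged 101 ± 88.6 on early IL27 arrays and 26.4 ± 24.9 at 8 to 20 h, and 81.7 ± 63.2 then 18.3 ± 1.84 on ctrl arrays (SD, n = 5 and 9). Of 6 tested CD4 T cell markers, 5 were called lower at 8 to 20 h in each arm, Cd3d by 0.94 log2 units in the IL27 arm and 0.72 in the ctrl arm. Their part in the result was not tested.

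Promoter windows from the RefSeq table (build GRCm38.p6, 250 bases before to 50 after each annotated start, given 5′ to 3′ on the gene's strand) were read for genes that rose together. The table matched 65 of the 74 genes with 71 windows. Letters of 4 motifs were searched on both strands: GCGCATG for NRF1 and CCGGAAG for ETS factors such as GABP, both known activators of nuclear genes for mitochondrial proteins, GATGGCG for YY1, and the palindrome CACGTG, the E-box bound by MYC and its partners. The window of Mrpl42, the largest rise, holds the YY1 letters (chr10:95501900-95502199, minus strand), those of Mrpl27 (chr11:94653541-94653840, plus strand) and Mrps22 (chr9:98601630-98601929, minus strand) hold the ETS letters. Mrpl33 (chr5:31613701-31614000, plus strand), which differs from most of the family late in culture, holds NRF1 and ETS letters close together, and Mrps18b (chr17:35916391-35916690, minus strand) holds NRF1 letters in 2 places and ETS letters near its end. Capitals mark the motif letters, on whichever strand they read.
Mrpl42: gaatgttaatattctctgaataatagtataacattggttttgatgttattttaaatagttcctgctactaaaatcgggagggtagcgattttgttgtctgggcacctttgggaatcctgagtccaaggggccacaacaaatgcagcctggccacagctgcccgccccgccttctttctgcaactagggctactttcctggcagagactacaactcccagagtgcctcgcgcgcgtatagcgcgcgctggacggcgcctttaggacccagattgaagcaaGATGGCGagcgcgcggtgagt
Mrpl27: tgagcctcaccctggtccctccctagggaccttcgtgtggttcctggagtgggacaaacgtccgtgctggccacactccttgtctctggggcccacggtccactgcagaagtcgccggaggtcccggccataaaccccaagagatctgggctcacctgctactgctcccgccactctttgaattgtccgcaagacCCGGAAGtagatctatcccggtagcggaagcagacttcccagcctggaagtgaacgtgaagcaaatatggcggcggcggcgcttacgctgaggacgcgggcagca
Mrps22: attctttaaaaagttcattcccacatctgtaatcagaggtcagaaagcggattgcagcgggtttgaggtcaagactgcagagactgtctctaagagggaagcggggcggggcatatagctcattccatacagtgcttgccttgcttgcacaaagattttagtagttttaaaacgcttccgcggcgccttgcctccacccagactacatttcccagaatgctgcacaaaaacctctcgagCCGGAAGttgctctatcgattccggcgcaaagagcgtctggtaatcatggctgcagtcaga
Mrpl33: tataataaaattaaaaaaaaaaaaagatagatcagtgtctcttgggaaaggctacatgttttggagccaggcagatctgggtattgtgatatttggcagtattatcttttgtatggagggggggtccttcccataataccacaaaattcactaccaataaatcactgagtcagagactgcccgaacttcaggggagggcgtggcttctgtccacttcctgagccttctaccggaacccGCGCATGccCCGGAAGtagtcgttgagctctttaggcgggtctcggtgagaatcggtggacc
Mrps18b: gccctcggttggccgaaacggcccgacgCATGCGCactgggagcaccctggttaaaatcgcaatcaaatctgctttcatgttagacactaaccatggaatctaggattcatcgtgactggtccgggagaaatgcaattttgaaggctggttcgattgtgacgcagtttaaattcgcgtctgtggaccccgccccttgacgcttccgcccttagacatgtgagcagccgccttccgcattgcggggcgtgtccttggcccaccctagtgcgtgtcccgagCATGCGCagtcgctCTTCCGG

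The ETS letters were in 24 of the 71 windows (33.8%), against 8.86% of all 32851 windows of the table. NRF1 letters were in 8 (11.3%, against 3.91% of all windows), YY1 letters in 7 (9.86%, against 3.49%) and the E-box in 7 (9.86%, against 7.15%). At least 1 of the 4 was in 38 windows (53.5%, against 20.2%). The 32851 windows are those of the whole table, not only of genes tested on the arrays. Shares among the tested genes were not counted, so these figures do not show that the letters are particular to this family. The median rise of the 24 genes with ETS letters was 1.21 in the IL27 arm and 1.34 in the ctrl arm, and that of the 41 without was 1.30 in the IL27 arm and 1.34 in the ctrl arm. For YY1 letters it was 1.41 in the IL27 arm and 1.36 in the ctrl arm with them (7 genes), and 1.21 in the IL27 arm and 1.34 in the ctrl arm without. For NRF1 letters it was 1.10 in the IL27 arm and 1.20 in the ctrl arm with them (8 genes), and 1.22 in the IL27 arm and 1.34 in the ctrl arm without. Genes with the E-box (5) had medians of 1.41 in the IL27 arm and 1.501 in the ctrl arm, and those without it 1.21 in the IL27 arm and 1.34 in the ctrl arm. Mrps11 and Mrpl46 lie head to head on chromosome 7, and their windows share 141 bases. A match of letters does not show that a factor binds there.

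Of 11 tested regulators of mitochondrial biogenesis genes, 2 were called higher and 4 lower at 8 to 20 h in the IL27 arm, and 1 higher (0 without the 12 h array) and 4 lower in the ctrl arm. Nrf1 fell by 0.87 log2 units in the IL27 arm and 0.85 in the ctrl arm, and Yy1 by 0.48 in the IL27 arm and 0.61 in the ctrl arm. Mxd4 and Mnt compete with MYC for its partner MAX and repress its targets. They fell by 2.66 and 1.26 in the IL27 arm and by 2.89 and 1.34 in the ctrl arm. All 4 genes named here fell, and those called higher are not named, so the 4 do not stand for the list. Changes of Myc, Max, Gabpa and Gabpb1, which are also on it, are not given here. The part of these regulators in the result was not tested.

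Other genes that serve mitochondrial protein synthesis rose over the same interval, from lists chosen by function. Among mitochondrial import genes 24 of 26 tested were called higher and 1, Tomm34, lower in each arm (median 1.01 in both), with the chaperonin gene Hspe1 at 1.19 in the IL27 arm and 1.39 in the ctrl arm. Of 15 translation factors and tRNA-modifying enzymes 13 were called higher in each arm, led by the elongation factor Gfm1 (1.87 in the IL27 arm, 1.86 in the ctrl arm). All 4 tested mitoribosomal proteins with other symbols rose, Chchd1 by 1.23 in the IL27 arm and 1.39 in the ctrl arm and Gadd45gip1 by 1.48 and, in the ctrl arm, 1.38. Synthetases that charge mitochondrial tRNAs were called in 6 of 8 cases in each arm, with Rars2 at 1.67 in the IL27 arm and 1.85 in the ctrl arm. For ribosome assembly and rRNA modification the counts were 14 higher and 1 lower of 21 in the IL27 arm, and 13 higher and 2 lower (1 without the 12 h array) in the ctrl arm. For genes of mitochondrial DNA and RNA upkeep they were 9 higher and 1 lower of 14 in the IL27 arm, and 10 higher and 3 lower in the ctrl arm: Slirp, which stabilises mitochondrial mRNAs, rose by 1.94 in the IL27 arm and 2.43 in the ctrl arm, and Polg2, a subunit of the mitochondrial DNA polymerase, fell by 1.08 in the IL27 arm and 1.06 in the ctrl arm.

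Cytosolic ribosomal protein genes did not move this way relative to the other genes of an array. Arrays had similar medians and the same amount of RNA, so a change in RNA per cell would not show in any list. Of 43 tested, 9 were called higher and 12 lower in the IL27 arm (median 0.00), and 13 higher and 13 lower in the ctrl arm (median -0.03). Oxidative phosphorylation subunits encoded in the nucleus rose by less at the median (0.66 in the IL27 arm and 0.74 in the ctrl arm), with 62 of 74 called higher in each arm and 1 lower in the IL27 arm. The difference between these lists and the 74 mitochondrial ribosomal protein genes was not tested.

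**Figure D3:**
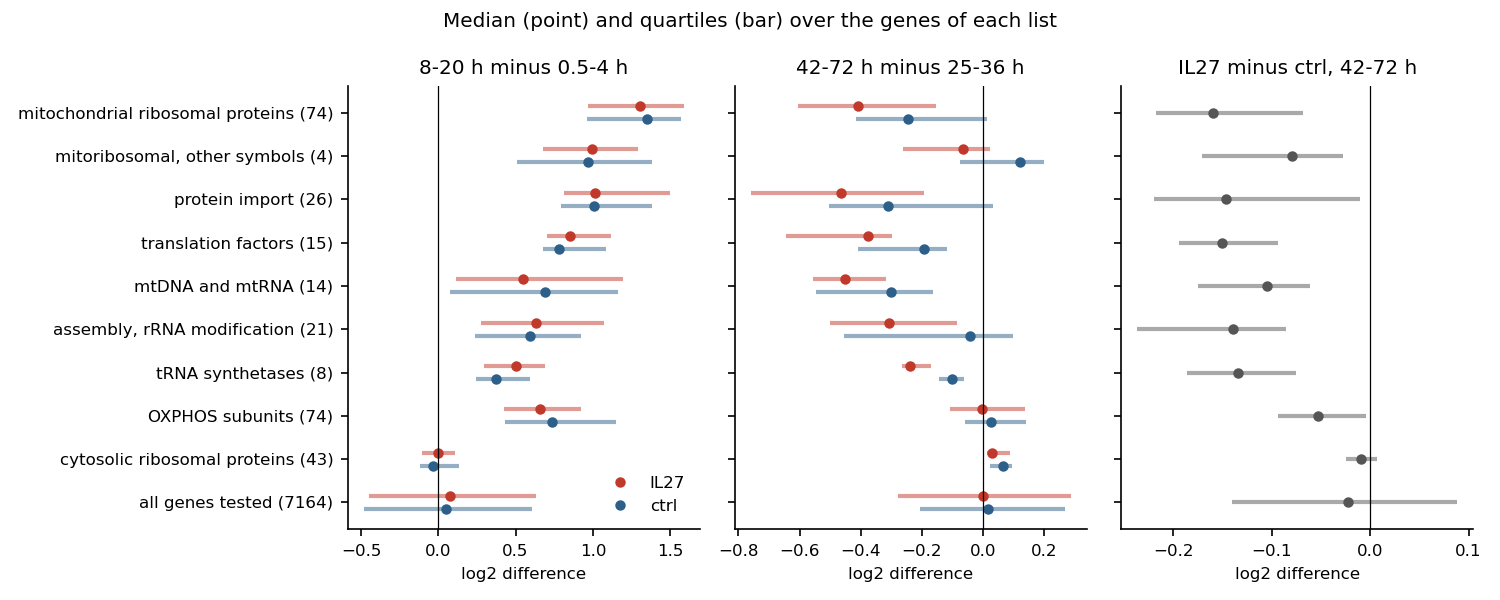
Median (point) and quartiles (bar) of the log2 difference over the tested genes of each list (number tested in brackets), for 8 to 20 h minus 0.5 to 4 h, for 42 to 72 h minus 25 to 36 h (IL27 arm red, ctrl arm blue in both), and for IL27 minus ctrl at 42 to 72 h (grey). In the first panel the mitochondrial ribosomal proteins sit at 1.30 in the IL27 arm and 1.35 in the ctrl arm and the cytosolic ones at 0.00 and -0.03; in the last they sit at -0.16 and the cytosolic ones at -0.01.

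From 8 to 20 h on to 25 to 36 h most of the family held its level. In the IL27 arm 3 of 74 were called higher and 1 lower at 25 to 36 h (9.97% and 7.73% of all genes), and in the ctrl arm 4 higher and 4 lower (9.37% and 9.3% of all genes), with median differences of 0.01 in the IL27 arm and -0.01 in the ctrl arm. Mrpl18, reported to bind 5S rRNA in human cells, and Mrpl10, the base of the stalk, were called higher in both arms: by 0.58 and 0.52 in the IL27 arm and by 0.55 and 0.54 in the ctrl arm. Mrps16 rose in the IL27 arm (0.47), and Mrpl45, a protein at the tunnel exit that faces the inner membrane, and Mrps34 in the ctrl arm (0.79 and 0.32). Mrpl23, another protein of the tunnel exit, was lower in both arms (fell by 0.37 in the IL27 arm and by 0.40 in the ctrl arm). Mrps24, Mrpl52 and Mrpl55 were lower in the ctrl arm, where they fell by 0.46, 0.43 and 0.40. Without the 12 h ctrl array the IL27 arm had 6 higher and 2 lower (11.3% and 10.9% of all genes). Without the 30 h arrays 0 were higher in either arm.

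Late in culture many of these genes fell in the IL27 arm. At 42 to 72 h against 25 to 36 h, 34 of 74 were called lower and 0 higher in the IL27 arm (18.1% and 18.8% of all genes tested; unadjusted p under 0.05 in limma for 40 lower and 0 higher), and 9 lower and 0 higher in the ctrl arm (8.98% and 13.2% of all genes; unadjusted 20 lower and 3 higher). All 9 were among the 34, and the 9 of 74 in the ctrl arm are close to that arm's share over all genes. The median difference was -0.41 in the IL27 arm (all genes 0.00, 65 of 74 negative) and -0.24 in the ctrl arm (all genes 0.02, 53 negative). These counts do not show that the arms differ, which the comparison between arms below tests. Without the 30 h arrays 12 were called lower in the IL27 arm and 0 in the ctrl arm, and without the 72 h arrays 15 in the IL27 arm. Without the 25 h ctrl array 1 was called in the ctrl arm, and without 42 h 16.

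Mrps2 and Mrps12, small-subunit proteins with bacterial counterparts, Mrpl20 and Mrpl12 of the large subunit and the mitochondria-specific Mrpl42 and Mrpl49 fell most in the IL27 arm. Mrps2 read 464, 428, 459 and 406 on the IL27 arrays of 25 to 36 h and 94.8 to 349.8 (median 239) at 42 to 72 h; ctrl arrays read 478, 418, 422 and 458 at 25 to 36 h and 145 to 419 (median 301) at 42 to 72 h. Its late IL27 arrays all lay below those of 25 to 36 h, and 1 late ctrl array, at 419, overlapped the earlier ones. The fall was 0.95 ± 0.30 in the IL27 arm, a log2 difference of -0.95 (limma adjusted p = 0.0112). The others changed by -0.86 (Mrpl12), -0.85 (Mrpl42), -0.84 (Mrpl20), -0.83 (Mrps12) and -0.82 (Mrpl49) in the IL27 arm. In the ctrl arm Mrpl20 (-0.69, adjusted p = 0.00864), Mrps12 (-0.64), Mrpl50 (-0.55), Mrpl11 (-0.54), Mrpl55 (-0.51) and Mrpl49 (-0.49) led the 9. Genes that did not take part include Mrpl4 (0.27 in the IL27 arm, 0.20 in the ctrl arm), Mrpl14 (0.22 in the IL27 arm, 0.49 in the ctrl arm) and Mrps16 (0.06 in the IL27 arm, 0.38 in the ctrl arm), with no call in either arm.

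**Figure D4:**
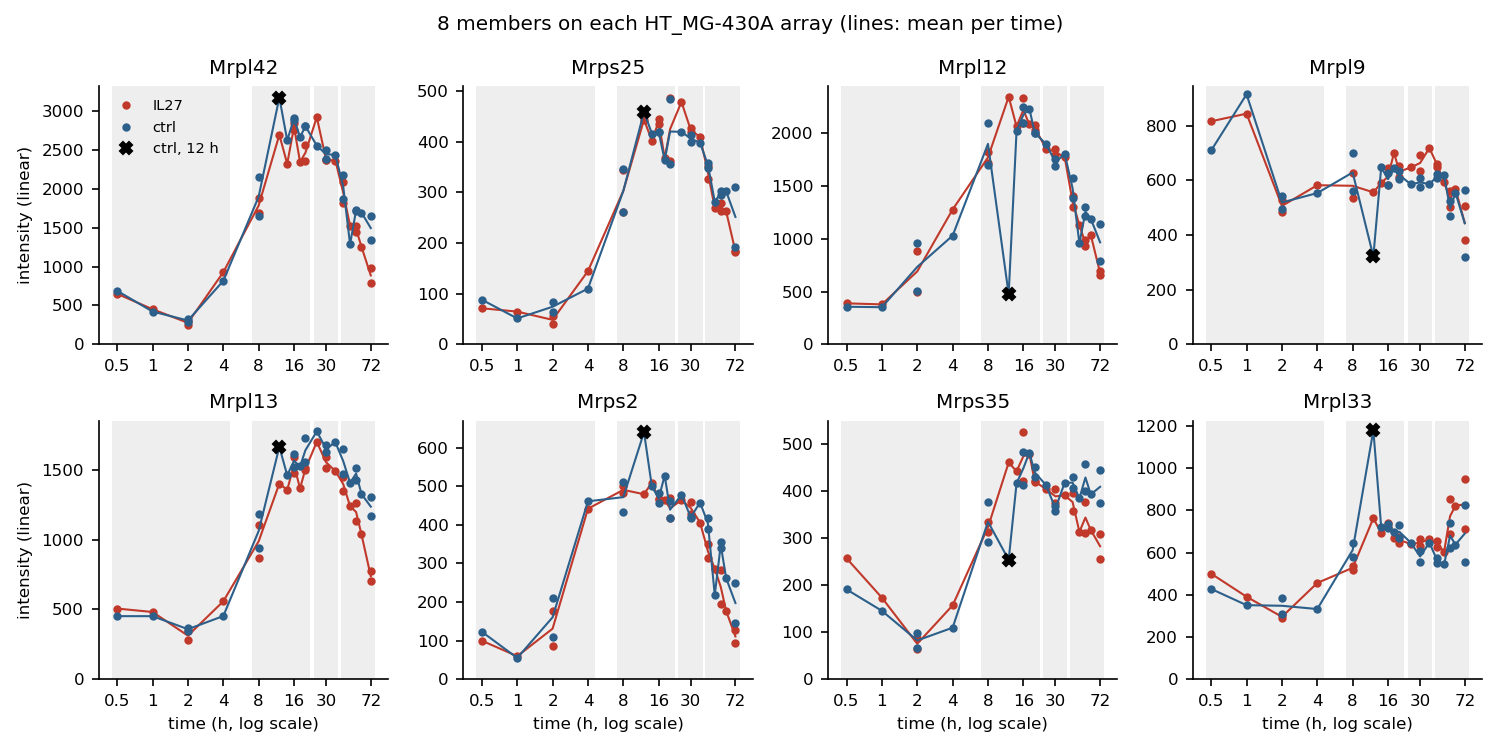
Intensity (linear) of 8 mitochondrial ribosomal protein genes on every HT_MG-430A array against time (h, log scale), IL27 arm red and ctrl arm blue, lines through the mean per time, grey bands for the windows and a cross for the ctrl array of 12 h. Mrpl42 and Mrps25 are the leading rises, Mrpl9 does not rise, and Mrpl13, Mrps2 and Mrps35 end lower and Mrpl33 mostly higher in the IL27 arm; Mrpl13 ends at 775 and 701 on IL27 arrays of 72 h, against 1167 and 1306 on ctrl arrays.

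Few genes of the family were called between the arms until 36 h. At 0.5 to 4 h 0 of 74 were called higher and 0 lower with IL27 (1.83% and 0.53% of all genes; unadjusted p under 0.05 in limma for 2 higher and 0 lower), with a median difference of 0.05 (all genes -0.03). The smallest adjusted p, 0.0743, was that of Mrps18c, which differed by 0.30 ± 0.09. It read 611, 644, 770.1, 723 and 845 on IL27 arrays and 562, 546, 595, 662 and 514 on ctrl arrays, and only the ctrl maximum of 662 lay above any IL27 value. It was called without the 12 h ctrl array (adjusted p = 0.0261). Mrpl50 differed by 0.22 and Mrpl2 by 0.18, with adjusted p of 0.456 and 0.395.

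In the first hours the share of the family above ctrl varied by time. With IL27 49 of 74 were higher at 0.5 h and 49 at 1 h (medians 0.04 and 0.04), and 49 were lower at 2 h (median -0.08, all genes -0.08). Of all genes tested, 51.6% were lower with IL27 at 0.5 h, 49.3% at 1 h and 68.3% at 2 h. On HT_MG-430A the 4 h arrays, 1 per arm, had a median over the 74 of 528 with IL27 and 388 in ctrl. There 73 of 74 were higher with IL27 (median 0.31, all genes 0.00), while 50.7% of all genes tested were lower. On Mouse430A_2 at 4 h 59 of 74 were lower and 15 higher with IL27, with a median of -0.19. Of all genes tested there, only 26.8% were higher with IL27 (median -0.16), so lower values were not particular to the 74. Each 4 h value is 1 array per arm.

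At 8 to 20 h 2 of 74 were called higher and 2 lower with IL27 (5.08% and 6.25% of all genes), with a median of 0.00. Mrps23, a small-subunit protein specific to mitochondria, was higher by 0.45 ± 0.14 (limma adjusted p = 0.0362) and Mrpl38, of the large subunit, by 0.21 ± 0.07 (adjusted p = 0.0415). Mrpl55 was lower (-0.23 ± 0.07, adjusted p = 0.0298), as was Mrps36 (-0.21 ± 0.07, adjusted p = 0.0345). Mrps23 read 456 to 693 (median 639) on IL27 arrays and 78.2 to 612 (median 587) on ctrl arrays, and the 78.2 is the 12 h ctrl array. Without that array 0 were called in either direction (4.06% of all genes higher and 4.56% lower). The differences were then 0.19, 0.13, -0.21 and -0.18, with limma adjusted p between 0.0660 and 0.197. At 25 to 36 h 0 were called higher and 0 lower (1.56% and 1.73% of all genes; unadjusted 1 higher and 0 lower), the smallest adjusted p being that of Mrpl1 (0.37 ± 0.14, adjusted p = 0.233).

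At 42 to 72 h 16 of the 74 genes were called lower with IL27 and 1 higher (12.8% and 10.1% of all genes tested). Over the 74, 62 had a negative difference and 12 a positive one, and the median was -0.16 (all genes -0.02); without the 72 h arrays 3 were called lower. The 16 held 6 of 28 large-subunit proteins with a bacterial counterpart and 4 of 20 without. They also held 2 of 15 small-subunit proteins with a counterpart, 3 of 9 without, and the unclassed Mrps36. Differences of the called genes were small, from -0.37 to -0.16. Leaving out the 12 h ctrl array gave 29 lower, all 16 among them, and 2 higher. The shares over all genes rose too in that setting, to 17.0% lower and 12.5% higher. By class the 29 were 12, 6, 5 and 5 genes in the same order, and Mrps36.

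Mrpl13 (gene ID 68537, chromosome 15), a large-subunit protein with a bacterial counterpart, had the smallest adjusted p. On IL27 arrays it read 1345 and 1449.7 at 42 h, 1239 at 48 h, 1259.6 and 1136 at 54 h, 1038 at 60 h and 775 and 701 at 72 h. On ctrl arrays it read 1471 and 1653 at 42 h, 1407 at 48 h, 1431 and 1516 at 54 h, 1327 at 60 h and 1167 and 1306 at 72 h. At each of these 5 times every IL27 array was below every ctrl array, although the ranges over the whole window overlap. The difference was -0.36 ± 0.07 (limma adjusted p = 0.000158).

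Mrps35, a small-subunit protein specific to mitochondria, was separated in the same way. It read 358 and 396 at 42 h, 314 at 48 h, 376 and 312 at 54 h, 317 at 60 h and 309.8 and 256 at 72 h on IL27 arrays, against 406 and 429.8, 385, 458 and 401, 393, and 374 and 445 on ctrl arrays of those times. The IL27 values were the lower ones at all 5 times. The difference was -0.30 ± 0.09 (limma adjusted p = 0.00964). On the single Mouse430A_2 arrays of 48 h Mrps35 ran the other way, at 2024 with IL27 and 1943 in ctrl.

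Mrps2, which carries the largest difference (-0.37 ± 0.11, limma adjusted p = 0.0145), read 94.8 and 126 at 72 h on IL27 arrays, against 145 and 249 on ctrl arrays. At 48 h it ran the other way, with 287 on the IL27 array and 218 on the ctrl array. Mrpl42 read 792 and 982 at 72 h with IL27, against 1346 and 1646 in ctrl, and it too was higher with IL27 at 48 h (1523, against 1287 in ctrl). Its difference was -0.27 ± 0.08 (adjusted p = 0.00941). Mrps31 (-0.29 ± 0.11, adjusted p = 0.0444) and Mrpl50 (-0.29 ± 0.09, adjusted p = 0.0118), both specific to mitochondria, complete the 6 largest among called genes; Mrpl19, not called, differed by -0.28.

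Mrpl33, a small protein of the large subunit, was the only gene called the other way. It read 656 and 628 at 42 h, 604 at 48 h, 855 and 690.1 at 54 h, 822 at 60 h and 947 and 710.0 at 72 h on IL27 arrays, against 572 and 550.4, 543, 739 and 619, 638, and 556 and 823 on ctrl arrays of those times. IL27 arrays were above at 42, 48 and 60 h, and the arms overlapped at 54 and 72 h. The difference was 0.22 ± 0.08 (limma adjusted p = 0.0400). The 2 genes nearest the family's median, Mrpl37 and Mrps33, both differed by -0.16 and were not called.

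**Figure D5:**
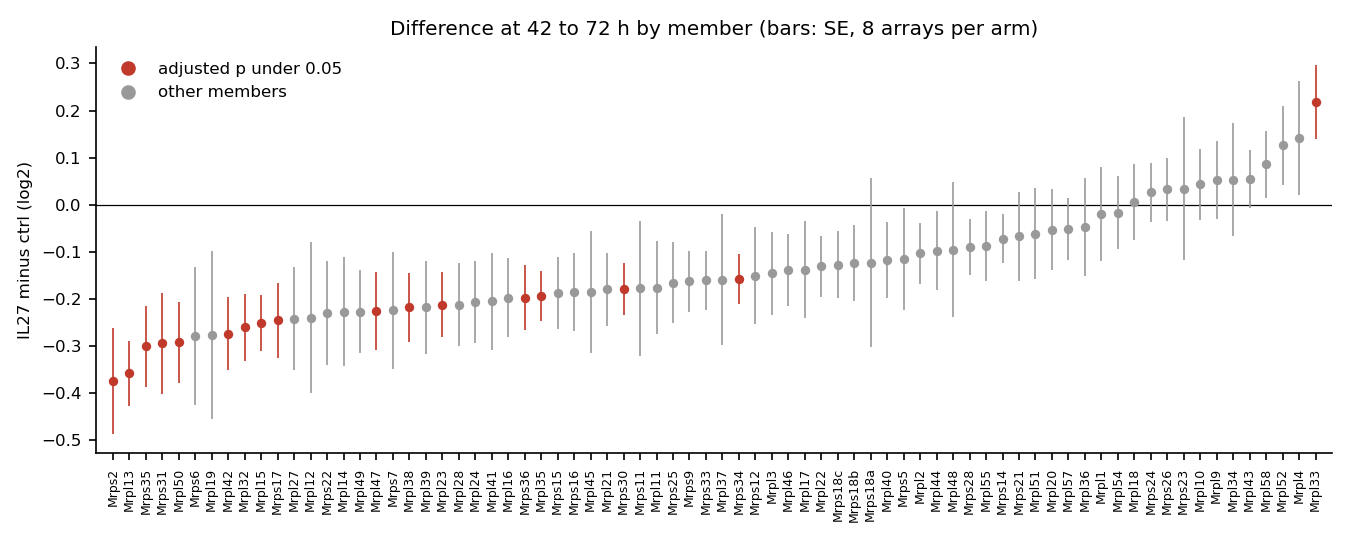
IL27 minus ctrl difference at 42 to 72 h (log2, points, with SE bars from limma, 8 arrays per arm) for each of the 74 mitochondrial ribosomal protein genes, sorted; red marks an adjusted p under 0.05. The points run from -0.37 (Mrps2) to 0.22 (Mrpl33), and 62 lie below 0.

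The late difference was uneven over the window. At 42 h 55 of 74 were lower with IL27 (median -0.06), at 48 h 28 (median 0.07), at 54 h 65 (-0.19), at 60 h 62 (-0.19) and at 72 h 64 (-0.30, all genes -0.04). Of all genes tested, 57.9% were lower with IL27 at 42 h, 50.5% at 48 h and 51.2% at 54 h. The share was 54.2% at 60 h and 56.1% at 72 h. The median over the 74 at 72 h was 551 with IL27 and 671 in ctrl, and both IL27 arrays were below both ctrl arrays for 41 of 74 genes (26.1% of all genes tested). Without the 72 h arrays 3 genes were called lower, without 54 h 8, and without the second ctrl array of 72 h 7. Without the arrays whose titles end in d, a suffix the labels do not explain, 4 were lower and 0 higher. Mrpl33 was not called when the arrays of 16, 30, 42, 54, 60 or 72 h were left out, each time in turn.

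The change of the IL27 difference between 8 to 20 h and 42 to 72 h was tested directly. It was called negative for 7 of 74 and positive for 1 (7.79% and 7.5% of all genes), with a median of -0.15 (all genes -0.01). Mrps7, a protein of the small-subunit head, changed by -0.49 ± 0.17 (limma adjusted p = 0.0471), Mrps31 by -0.48 ± 0.15 (adjusted p = 0.0244), Mrpl38 by -0.43 ± 0.10 (adjusted p = 0.00302) and Mrps35 by -0.39 ± 0.12 (adjusted p = 0.0214). Mrps18b (-0.31), Mrpl35 (-0.24) and Mrps30 (-0.23) make up the 7, and Mrpl33 changed by 0.36 ± 0.11 (adjusted p = 0.0204). Without the 12 h ctrl array 10 were negative and 2 positive (8.79% and 8.16% of all genes). Among the 10 were 5 of the 7: Mrps7, Mrps31, Mrpl38, Mrps35 and Mrpl35. Without the 54 h arrays, or without those of 72 h, 1 was negative.

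In other mitochondrial lists a minority was called lower with IL27 at 42 to 72 h, to be read against 12.8% of all genes. Import genes counted 6 lower and 0 higher of 26 (median -0.15), among them the channel subunit Timm17a (-0.35) and the presequence protease subunit Pmpcb (-0.29). Translation factors counted 3 of 15 lower, including the tRNA methyltransferase Trmt5 (-0.29). Without the 12 h ctrl array they counted 6, to be read against 17.0% of all genes in that setting. Synthetases counted 2 of 8, Ears2 (-0.21) and Rars2 (-0.25). Genes of mitochondrial DNA and RNA upkeep counted 2 of 14, Tefm (-0.27) and Mterf2 (-0.18), and mitoribosomal proteins with other symbols 1 of 4, Ptcd3 (-0.32). Assembly genes counted 6 lower and 1 higher of 21: Fastkd2, a factor for the large rRNA, differed by -0.36, and Afg3l2, the membrane protease that matures Mrpl32, by 0.43. Cytosolic ribosomal protein genes counted 0 lower and 0 higher of 43, with a median of -0.01, and oxidative phosphorylation subunits 8 lower and 1 higher of 74, with a median of -0.05.

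Marker levels differed between the arms late as well. Of 6 tested CD4 T cell markers, 4 were called higher with IL27 at 42 to 72 h, such as Cd28 (0.50), and Cd4 was called lower (-0.28), as was the CD8 marker Cd8b1 (-0.65). Klrc1, an NK cell receptor that was not among the genes tested, averaged 29.5 (16.3 to 57.1) on IL27 arrays and 17.9 (14.98 to 23.8) on ctrl arrays. Sums of the CD4 list were 9566 to 15247 on IL27 arrays and 7965 to 12318 on ctrl arrays, and those of the 2 CD8 markers 91.9 to 151 on IL27 arrays and 120.1 to 326 on ctrl arrays. Their part in the result was not tested.

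On Mouse430A_2 the family was placed against unstimulated cells. The median over the 74 genes was 1022 on the ctrl array of 0 h, 1408 at 4 h, 2188 at 16 h and 1844 at 48 h in ctrl. With IL27 it was 1359 at 4 h, 2127 at 16 h and 1650 at 48 h. At 16 h 73 of 74 were above the 0 h array with IL27 and 72 in ctrl, and at 48 h 70 with IL27 and 69 in ctrl. At 4 h it was 50 with IL27 and 55 in ctrl. Of all genes tested, 50.02% with IL27 and 54.4% in ctrl were above 0 h at 4 h, 52.6% with IL27 and 52.5% in ctrl at 16 h, and 48.3% with IL27 and 50.6% in ctrl at 48 h. Mrpl42 read 1464 with IL27 and 1155 in ctrl at 4 h, 4033 with IL27 and 4339 in ctrl at 16 h, and 2097 with IL27 and 3142 in ctrl at 48 h, against 1127 at 0 h. These are single arrays.

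Across the 3 matched times of that array type, a limma fit with 2 residual degrees of freedom called 0 of 74 higher and 0 lower with IL27, and 0% of the 6016 genes tested there in either direction (unadjusted p under 0.05: 0 higher and 3 lower). The median difference was -0.12 (all genes -0.07), and 65 of 74 were negative. The 3 were Mrpl45 (-0.35), Mrps21 (-0.29) and Mrpl24 (-0.26), with adjusted p from 0.55 upward. At 48 h 57 of 74 were lower and 17 higher with IL27 (median -0.15, all genes -0.03), with Mrpl50 lowest (-0.73). Of all genes tested there, 44.0% were higher with IL27. The HT_MG-430A arrays of 48 h, 1 per arm, ran the other way, with 46 of 74 higher and 28 lower with IL27 (median 0.07). Between the arrays named GFPP and GFPN, the median over the 74 was 1589 on GFPP and 1601 on GFPN, and 24 were higher and 49 lower on GFPP. The median difference was -0.03 (all genes 0.00), and 50.5% of all genes tested were higher on GFPP.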

How the data were processed

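The labels' protocols describe 6 µg of total RNA per array, made into biotin-labelled cRNA. MAS5 is the one tool named in the submitters' processing notes, with no version. The deposited intensity values are on a linear scale and were taken as already normalized by the authors within each array type, since their array medians are close, so the types were never combined. Probe sets were named through GEO's platform annotation: of 22626, 20173 have 1 gene, 942 several and 1511 none. Every per-sample column belongs to a sample of the series.

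From the deposited values, log2(intensity + 32) was fitted in limma 3.58.1 (R 4.3.3, eBayes with a trend), after keeping genes that exceeded the median of the array on 5 or more arrays (7164 genes for HT_MG-430A, 6016 for Mouse430A_2). The IL27 difference was fitted per window with time as a factor, and the courses with 1 mean per arm and window, so their spread includes that between times. Benjamini-Hochberg adjustment ran over all genes tested, at 0.05. The fits were also run on simulated data with independent noise on each array, which does not cover deviations shared between arrays.

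Genes named are, per comparison, the 6 largest called differences each way, or the 3 smallest p where none was called, calls against the majority, the 3 brightest and 3 dimmest, Mrpl12, Mrps18a, Mrps18b, Mrps18c, Mrps36 and the 2 nearest the median, and from other lists up to 4 by adjusted p. Genes named outside this rule (those with the smallest or no rise, late peaks and some examples from lists) were chosen after their values were seen. The family, lists and tests were chosen with earlier results of these data known. Alternatives were other pseudocounts, no filter, all probe sets, quantile normalization, single-time means, the title suffix d left out or as a block, and arrays or times left out.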

Additional observations from a re-analysis of the deposited data

Results flagged for a closer look

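The IL27 array of 4 h had a median intensity over the 74 genes of 528, far from the other IL27 arrays of 0.5 to 4 h. Its gap to the nearest was 0.84 of the range, above the critical value of 0.71. The window mixes times, and chance alone would mark about 1 in 20 of the 8 groups examined. Gene by gene, 62 of 592 such groups (10.5%) held a far array, which was the ctrl array of 12 h in 29 and the IL27 array of 4 h in 7.

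The IL27 difference changed between 8 to 20 h and 42 to 72 h, by the test of that change in limma, for 8 genes, 7 of 74 negative and 1 positive, against 7.79% and 7.5% of all genes tested. The change was -0.49 for Mrps7, -0.48 for Mrps31, -0.43 for Mrpl38, -0.39 for Mrps35, -0.31 for Mrps18b, -0.24 for Mrpl35 and -0.23 for Mrps30, and 0.36 for Mrpl33. Without the 12 h ctrl array Mrps18b and Mrps30 were no longer called, and without the 54 h arrays, or those of 72 h, 1 negative change was called.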

How the results depend on the processing

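The rise to 8 to 20 h was called for 71 or 72 genes in each arm whichever array or time was left out. Among the named genes followed over the alternative settings, none that was called in either fit changed sign. Sign changes of genes called in neither fit were not counted. Counts for the arms later on moved. With single-time means, where spread comes from duplicated arrays alone, the IL27 difference at 8 to 20 h had 12 higher and 5 lower and its later change 20 lower. The same setting gave 11 higher and 7 lower (IL27 arm) and 15 higher and 15 lower (ctrl arm) for 25 to 36 h, and 1 higher (IL27 arm), and 3 higher and 40 lower (ctrl arm) for 42 to 72 h. Without suffix d, which leaves fewer arrays, the IL27 difference had 0 higher at 8 to 20 h and 0 higher and 4 lower at 42 to 72 h, its change 2 lower, the courses 13 lower late in the IL27 arm, 2 lower late in the ctrl arm and 0 higher and 2 lower at 25 to 36 h in the ctrl arm. Without the 12 h ctrl array the IL27 difference had 1 higher at 0.5 to 4 h, 0 and 0 at 8 to 20 h and 2 higher and 29 lower at 42 to 72 h, its change 2 higher, the IL27 course 6 higher and 2 lower at 25 to 36 h and the ctrl course 1 higher late. A pseudocount of 100 and quantile normalization each gave 1 higher late in the ctrl arm, and quantile normalization 1 higher with IL27 at 0.5 to 4 h. With no filter 0 were higher with IL27 at 8 to 20 h and 0 at 42 to 72 h. Averaging all probe sets gave 1 higher with IL27 at 8 to 20 h and 2 lower at 25 to 36 h in the IL27 course. Suffix d as a block moved no count by over 1.5 times. The cause of these moves was not tested.

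Leaving out arrays or times in turn, the IL27 difference ranged over 0 to 1 higher at 0.5 to 4 h, 0 to 3 higher and 0 to 3 lower at 8 to 20 h, and 0 to 2 higher and 3 to 29 lower at 42 to 72 h. Its change ranged over 1 to 2 higher and 1 to 11 lower. The courses ranged over 0 to 6 higher and 0 to 2 lower (IL27 arm) and 0 to 7 higher and 0 to 7 lower (ctrl arm) at 25 to 36 h, and over 12 to 41 lower (IL27 arm) and 0 to 1 higher and 0 to 16 lower (ctrl arm) at 42 to 72 h. Of 53 other probe sets of the family, 25 were brighter than 100, and 1 of these had the opposite sign in each early course and 0 in the late difference. At 8 times the arms share arrays with and without suffix d. The difference between these in one arm correlated with that in the other at -0.01 to 0.76 (median 0.56) over 7146 genes. The correlation was above 0.1 at 7 of the 8 times. Arrays of the arms that share time and suffix thus mostly deviated together, which the main fit did not take into account. A replicate block of time and suffix, chosen after seeing the data, gave 1 higher and 3 lower with IL27 at 8 to 20 h (Mrps23 was not called), 1 higher at 25 to 36 h (Mrpl1), 1 higher and 22 lower at 42 to 72 h, and 1 higher and 9 lower for the change (Mrps7 was not called). The number of arrays limits precision, with 10 of 18 times on 1 array per arm.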
